A study of Mus musculus with 67 samples.

Results

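Chemokines are small secreted proteins that guide migrating cells through G protein-coupled receptors. In the embryo, CXCL12 attracts cells that carry CXCR4, among them muscle progenitors that move into the limb bud and cells of growing vessels, while ACKR3 binds the same ligand, takes it up and degrades it, and passes its signal to arrestins instead of G proteins. CXCL13 is the ligand of CXCR5 and is best known from lymphoid tissue, and CXCL14 is a CXC ligand whose receptor is not settled.

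A set of 6 genes of this system was followed, out of the 46983 gene IDs in the expression tables: the ligands *Cxcl12*, *Cxcl13* and *Cxcl14*, the receptors *Cxcr4* and *Cxcr5*, and the scavenging receptor *Ackr3*. They were taken by gene name, and the names were chosen by their measured levels and differences in these same libraries. Their values are therefore a description and carry no test. All comparisons rest on 14 RNA-seq libraries of mouse forelimb buds in 4 groups, part of a larger series whose chromatin assays are not analysed here. Whole buds at E9.25 (21 to 23 somites, before Hedgehog signaling) gave 3 WT and 4 *Gli3*-/- libraries, each from 4 pooled pairs of buds. Anterior parts of buds at E10.5 (32 to 35 somites, after Hedgehog signaling began) gave 4 WT and 3 *Gli3*-/- libraries from 2 pairs each. The mutants carried 2 copies of the Xt-J allele of *Gli3*, an intragenic deletion present in every cell of the embryo, and the line was kept on a Swiss Webster background. GLI3 is the main repressor that the Hedgehog pathway acts on in the limb. Because E9.25 buds were whole and E10.5 buds were anterior parts, stage and dissection cannot be told apart in any comparison between the stages.

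The tables give TPM values, which are transcript levels per length scaled so that each library sums to 1000000. The libraries held about 38.1 to 56.8 M reads, as estimated from coverage, FPKM and TPM, and a TPM of 1 stood for about 20.7 to 29.3 reads per kilobase. *Gli3* itself lay between 73.4 and 89.7 TPM in E10.5 WT and between 38.7 and 40.9 TPM in E10.5 *Gli3*-/- libraries, so RNA assigned to *Gli3* remained. Which parts of the transcript it covers cannot be told from gene-level values. At E9.25 it was listed at 44.2, 15.8 and 44.6 TPM in WT replicates 1, 2 and 3 and at 14.3 to 20.8 TPM in *Gli3*-/- libraries. The library labelled E9.25 WT replicate 2 therefore lay inside the mutant range for *Gli3*, and it also had the fewest genes at a TPM of at least 1 (13276, against up to 15816). The fitted differences of the members that rest on it are given with and without it. Per the study's methods, buds of 1 genotype from several litters were pooled and the libraries are biological replicates. Which litters entered which library is not given in the sources used here, so the p-values measure the spread between these pools.

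Start sites are shown for *Ackr3* and *Cxcl13*, the 2 members that passed the threshold of the fit across all genes between the genotypes of a stage, so that the sequence in front of them can be seen. Each run is the 250 bases before the RefSeq start site on the gene's strand in GRCm38.p6, and capitals mark the letters TATAAA. The first, chr1:90203730-90203979 on the plus strand, ends where *Ackr3* (ENSMUSG00000044337.5, chromosome 1, 90203980 to 90216751) begins in the tables. The second, chr5:95956689-95956938 on the plus strand, lies before *Cxcl13* (ENSMUSG00000023078.6, chromosome 5, 95956951 to 95961068).
Ackr3: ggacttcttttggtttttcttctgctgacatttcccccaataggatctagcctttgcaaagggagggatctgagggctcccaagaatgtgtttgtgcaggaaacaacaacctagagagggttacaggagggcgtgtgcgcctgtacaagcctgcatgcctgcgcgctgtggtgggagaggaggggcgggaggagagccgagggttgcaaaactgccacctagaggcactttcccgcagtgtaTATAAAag
Cxcl13: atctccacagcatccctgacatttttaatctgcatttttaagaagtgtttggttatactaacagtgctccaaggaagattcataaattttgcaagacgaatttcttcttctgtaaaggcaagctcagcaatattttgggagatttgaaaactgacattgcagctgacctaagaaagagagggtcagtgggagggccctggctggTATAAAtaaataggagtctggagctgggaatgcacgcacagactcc

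TATAAA, searched on both strands in the 300 bases from 250 before to 50 after the start site, occurred 8 bases before the start site of *Ackr3*, 46 bases before that of *Cxcl13* and, as overlapping matches on the 2 strands, 32 and 30 bases before that of *Cxcr4* (ENSMUSG00000045382.6, chromosome 1, 128588199 to 128592293, minus strand). It was not found in the windows of *Cxcl12* (ENSMUSG00000061353.11, chromosome 6, 117168535 to 117181367, plus strand) or *Cxcl14* (ENSMUSG00000021508.10, chromosome 13, 56288647 to 56296551, minus strand). Of 32851 windows of the same length, 13.6% held it. The GLI consensus GACCACCCA, searched on both strands, was in none of the 5 windows and in 0.253% of all windows. *Cxcr5* is ENSMUSG00000047880.14 (chromosome 9, 44511788 to 44556391, minus strand). In the tables no other gene overlapped any of the 6 genes.

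*Ackr3*, the scavenging receptor, showed the clearest difference between genotypes at E10.5. It was listed at 16.2, 18.8, 16.4 and 19.0 TPM in the 4 anterior WT libraries and at 6.44, 5.87 and 6.10 TPM in the 3 anterior *Gli3*-/- libraries. The groups did not overlap, and the mutant values lay closer together than the WT values. The mean TPM was 2.86-fold lower in the mutant, and the log2(TPM + 1) difference, *Gli3*-/- minus WT, was -1.38 with a standard error of 0.10. At E9.25 the genotypes overlapped, with 9.92, 6.72 and 7.38 TPM in WT and 10.6, 9.24, 10 and 6.77 TPM in *Gli3*-/- libraries. That log2 difference was 0.17 with a standard error of 0.21, and 0.07 without WT replicate 2. From E9.25 to anterior E10.5, *Ackr3* was higher in WT (log2 difference 1.06, standard error 0.16) and lower in *Gli3*-/- (-0.49, standard error 0.16). Neither stage pair overlapped. The 3 E10.5 *Gli3*-/- values were therefore the lowest *Ackr3* levels of all 14 libraries, and E10.5 WT values the highest.

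**Figure D1:**
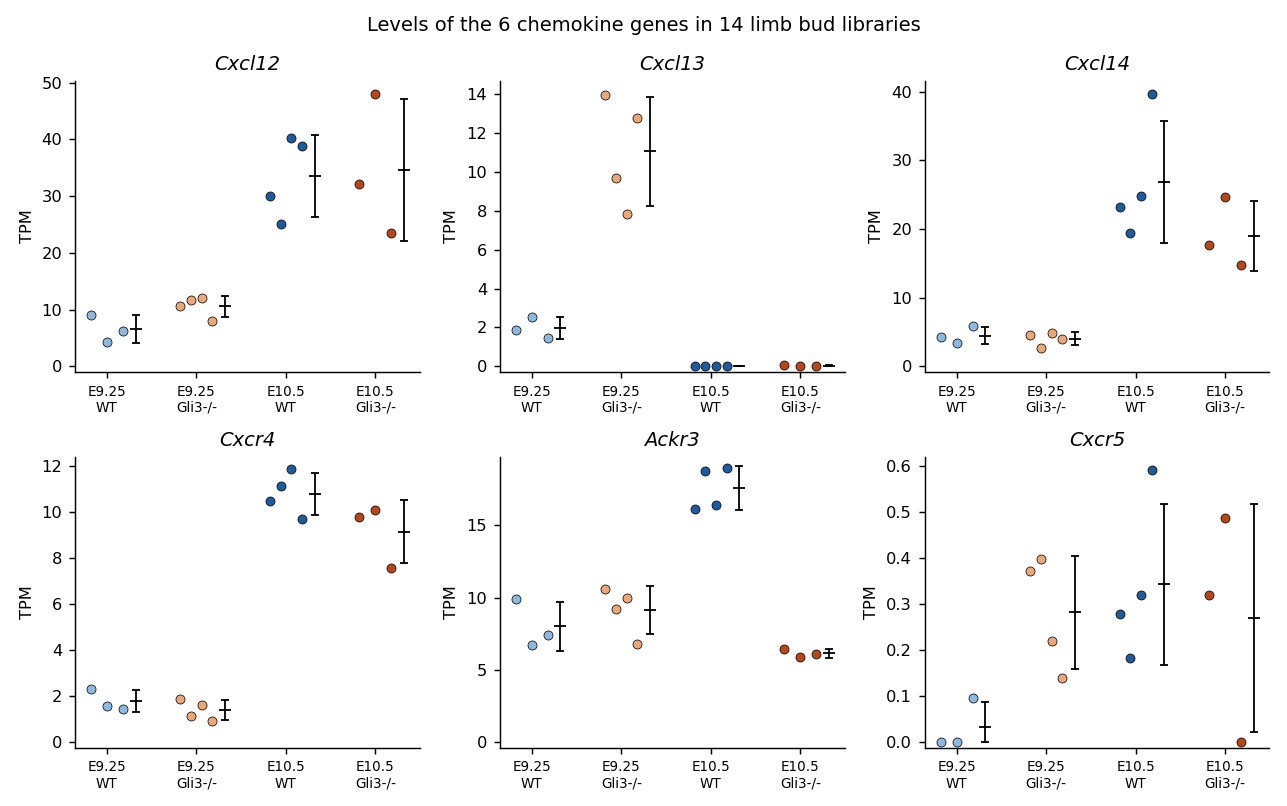
TPM of the 6 chemokine genes (vertical axes) in E9.25 WT, E9.25 *Gli3*-/-, E10.5 WT and E10.5 *Gli3*-/- libraries, 1 point per library, with the mean and SD beside the points. *Ackr3* stood at 16.2 to 19.0 TPM in E10.5 WT and at 5.87 to 6.44 TPM in E10.5 *Gli3*-/-, and *Cxcl13* was listed at 0 in all but 1 of the E10.5 libraries.

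Limb mesenchyme markers also differed between the E10.5 genotypes. The summed TPM of the 7 listed markers was 899 to 1094 in WT and 698 to 764 in *Gli3*-/- libraries, with 4 of 7 lower (*Prrx1*, *Prrx2*, *Msx1* and *Twist1*) and *Fgf10* higher at an adjusted p under 0.05. As a percentage of that sum in the same library, *Ackr3* was 1.48% to 2.09% in WT and 0.77% to 0.88% in *Gli3*-/-, without overlap. Taken the same way against the endothelial sum, it was 9.59% to 13.2% in WT and 3.53% to 4.48% in *Gli3*-/-, and none of the 9 endothelial markers passed the threshold. Sums of erythroid markers were 12500 to 17400 TPM in E10.5 WT and 14930 to 42520 TPM in E10.5 *Gli3*-/-, the highest in replicate 3, and those of surface ectoderm and ridge markers were 233 to 311 and 350 to 394 TPM, with 1 of 8 and 1 of 10 higher (*Hbb-bs* and *Fgf8*). The 10 ectoderm and ridge markers had a median log2 difference of -0.18, though their sum was higher, and *Fgf8* had the highest mean TPM of them. Neither the 2 neural crest nor the 2 somite markers tested passed. The part of these lists in the *Ackr3* difference was not tested. In whole tissue, fewer expressing cells and less RNA per cell cannot be told apart.

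*Cxcl13*, the ligand of CXCR5, separated the genotypes at E9.25 and not at E10.5. It was listed at 1.88, 2.56 and 1.46 TPM in the WT libraries and at 14.0, 9.68, 7.84 and 12.8 TPM in the *Gli3*-/- libraries. Every mutant value lay above every WT value. The mean TPM was 5.63-fold higher in *Gli3*-/-, and the log2(TPM + 1) difference was 2.01 with a standard error of 0.24. It was 2.15 without WT replicate 2. Its call in the fit across all genes was lost without WT replicate 3 (log2 difference 1.88) or without *Gli3*-/- replicate 1 (1.90). At E10.5 the 4 WT libraries and 2 of 3 *Gli3*-/- libraries listed *Cxcl13* at 0, and the remaining mutant library listed it at 0.063 TPM. No fold is given for it within E10.5 or between the stages.

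The summed level of flank and lateral plate mesoderm markers had its highest values in the group with the most *Cxcl13*. Their summed TPM was 28.6 to 72.7 in E9.25 WT and 93.8 to 243 in E9.25 *Gli3*-/-, with 9 markers listed, 8 tested and 3 higher (*Foxf1*, *Gata4* and *Osr1*). At E10.5 the sum was 7.43 to 10.9 in WT and 7.73 to 19.5 in *Gli3*-/-. From E9.25 to E10.5 in WT, 6 of 7 tested flank markers were lower and 1 was higher (*Osr1*). In *Gli3*-/-, 7 of 8 were lower and 0 higher. Between the E10.5 genotypes only 2 flank markers reached the filter, so most passed it through the E9.25 libraries and these counts are no test. The most abundant of these markers were *Hand1*, *Gata6* and *Gata4*, and none of the 9 was at 0 in all libraries. As a percentage of the flank sum in the same library, *Cxcl13* was 2.59% to 7.48% in E9.25 WT and 3.23% to 13.6% in E9.25 *Gli3*-/-, so on this scale the genotypes overlapped. As a percentage of the limb mesenchyme sum it was 0.20% to 0.30% and 0.91% to 2.09%, without overlap. These ratios were chosen after the values were seen. In E9.25 *Gli3*-/- replicates 1, 2, 3 and 4 the flank sum was 160.1, 229.4, 242.7 and 93.79 TPM. *Cxcl13* was listed at 13.98, 9.684, 7.839 and 12.76 TPM in the same order. Whether more flank tissue in the mutant buds had a part in the *Cxcl13* difference was not tested.

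**Figure D2:**
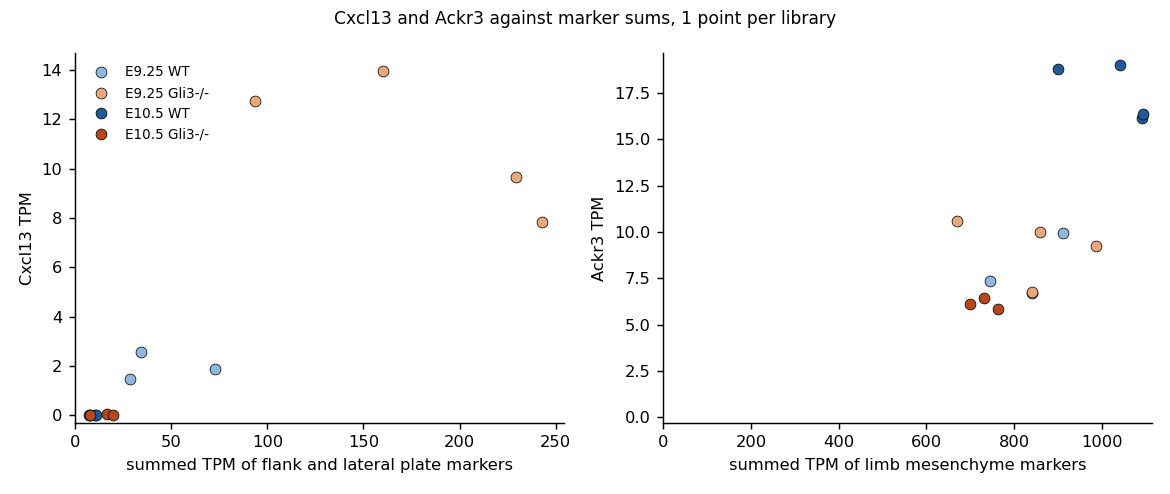
*Cxcl13* TPM against the summed TPM of 9 flank and lateral plate markers (left) and *Ackr3* TPM against the summed TPM of 7 limb mesenchyme markers (right), 1 point per library, coloured by group. E9.25 *Gli3*-/- libraries lay apart with 93.8 to 243 summed flank TPM and 7.84 to 14.0 *Cxcl13* TPM, and E10.5 WT libraries stood apart for *Ackr3*.

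*Cxcl12*, the ligand of CXCR4 and ACKR3, was higher at E10.5 and did not separate the genotypes. It was listed at 9.10, 4.26 and 6.21 TPM in E9.25 WT and at 10.7, 11.7, 12.1 and 7.96 TPM in E9.25 *Gli3*-/- libraries. The groups overlapped through WT replicate 1 and mutant replicate 4. The log2 difference was 0.66 with a standard error of 0.25, and it was 0.43 without WT replicate 2, a move of over 1.5 times. The endothelial markers summed to 106 to 183 TPM in E9.25 WT and to 197 to 291 TPM in E9.25 *Gli3*-/- libraries, with 0 of 9 passing the threshold. At E10.5 it was listed at 30.0, 25.0, 40.3 and 38.8 TPM in WT and at 32.1, 48.1 and 23.6 TPM in *Gli3*-/- libraries. The mutant values spanned the WT values on both sides, and the log2 difference was 0.01 with a standard error of 0.23. Every E10.5 library lay above every E9.25 library, by a log2 difference of 2.22 (standard error 0.24) in WT and 1.57 (standard error 0.23) in *Gli3*-/-.

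*Cxcl14* was also higher at E10.5. It was listed at 4.22, 3.33 and 5.89 TPM in E9.25 WT and at 4.59, 2.72, 4.89 and 3.98 TPM in E9.25 *Gli3*-/- libraries, which overlapped, with a log2 difference of -0.11 and a standard error of 0.24. It was -0.27 without WT replicate 2 and 0.064 without WT replicate 3, so its sign rested on single libraries. At E10.5 it was listed at 23.3, 19.5, 24.9 and 39.7 TPM in WT and at 17.7, 24.6 and 14.7 TPM in *Gli3*-/- libraries. WT replicate 4 stood above the others, and the genotypes overlapped, with a log2 difference of -0.46 and a standard error of 0.23. Without WT replicate 4 it was -0.26. The log2 difference between the stages was 2.32 (standard error 0.25) in WT and 1.98 (standard error 0.21) in *Gli3*-/-. *Cxcl14* and *Gli3* share chromosome 13, 40.56 megabases apart, and whether alleles linked to the mutation entered its values was not tested.

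*Cxcr4*, the signaling receptor of CXCL12, was low at E9.25, with 2.32, 1.57 and 1.44 TPM in WT and 1.89, 1.12, 1.59 and 0.91 TPM in *Gli3*-/- libraries. At E10.5 it was listed at 10.47, 11.1, 11.8 and 9.69 TPM in WT and at 9.75, 10.1 and 7.57 TPM in *Gli3*-/- libraries. The genotypes overlapped at both stages, and the stages did not overlap in either genotype. The log2 difference between genotypes was -0.23 (standard error 0.23) at E9.25 and -0.22 (standard error 0.12) at E10.5. At E9.25 it was -0.28 without WT replicate 2 and ran from -0.33 to -0.093 as each library was left out. At E10.5 it was -0.11 without *Gli3*-/- replicate 3. Between the stages it was 2.10 in WT (standard error 0.16) and 2.10 in *Gli3*-/- (standard error 0.19). Markers of migrating muscle progenitors, cells known to carry CXCR4, rose over the same interval, from summed TPM of 5.88 to 11.5 in E9.25 WT to 43.6 to 52.4 in E10.5 WT, with 4 of 4 tested higher. In *Gli3*-/- the sum went from 6.95 to 8.0 up to 28.0 to 40.5, with 3 of 4 higher. Only 2 of these markers reached the filter between the E9.25 genotypes, so the others passed it through the E10.5 libraries and their rise is no test. As a percentage of that sum, *Cxcr4* was 12.6% to 28.9% at E9.25 and 21.0% to 24.0% at E10.5 in WT, which overlapped. Against other sums the WT stages did not overlap. *Cxcr4* was 0.86% to 1.36% and 6.22% to 7.81% of the endothelial sum at E9.25 and E10.5. It was 0.19% to 0.255% and 0.93% to 1.24% of the limb mesenchyme sum. Against the macrophage and leukocyte sum it was lower at E10.5 (147% to 2274% and 45.3% to 85.9%). Macrophage and leukocyte markers rose as well, with 6 of 6 tested higher in both genotypes, from at most 1.65 summed TPM in any E9.25 library to 12.9 to 21.4 in E10.5 WT and 16.1 to 18.2 in E10.5 *Gli3*-/-. None of these markers reached the filter between the E9.25 genotypes. They passed it through the E10.5 libraries, so this count is no test. Between the E10.5 genotypes, 1 of 4 muscle progenitor markers was lower in *Gli3*-/- (*Met*) and 0 of 6 macrophage markers passed. The part of any of these cell types in the *Cxcr4* difference was not tested.

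*Cxcr5*, the receptor of CXCL13, stayed below 1 TPM in every library and was not tested. It was listed at 0, 0 and 0.095 TPM in E9.25 WT, at 0.37, 0.40, 0.22 and 0.14 TPM in E9.25 *Gli3*-/-, at 0.18 to 0.59 TPM in E10.5 WT and at 0.32, 0.49 and 0 TPM in E10.5 *Gli3*-/- libraries. The E9.25 genotypes did not overlap, nor did the stages in WT. At this depth such values stand for few reads.

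Read against the fit across all genes (limma on log2(TPM + 1), adjusted p under 0.05), the counts of members were as follows, and since the names were selected on these comparisons nothing is read from them. At E9.25, 1 of 5 tested members passed between the genotypes (*Cxcl13*), where 0.136% of all genes passed. That share rests on 20 genes, and single libraries moved it: 2 genes passed without WT replicate 3, 4 without *Gli3*-/- replicate 1 or 3, 67 without *Gli3*-/- replicate 4 and 196 without WT replicate 1. The groups of 1 of the 5 tested did not overlap, against 13.3% of all genes. At E10.5, 1 of 4 passed (*Ackr3*), against 4.77% of all genes, and 1 of 4 did not overlap, against 19.3%. From E9.25 to E10.5 in WT, 5 of 5 passed and 5 of 5 did not overlap, where 48.7% of all genes passed and 53.5% did not overlap. *Cxcl13* is counted among those that passed between the stages. In *Gli3*-/-, 4 of 5 passed, against 25.0% of all genes, and 5 of 5 did not overlap, against 35.7%. *Ackr3* was the one that did not pass there. It did pass in 5 of 7 alternatives, but in only 1 of 7 fits that left out a library, that without E9.25 *Gli3*-/- replicate 4 (log2 difference -0.62). The median gene itself moved by 0.34 on the log2 scale between the stages in WT and by 0.23 between the genotypes at E9.25, and median-of-ratios scaling brought these to 0.03 and 0.02. Relative to the median gene, the WT stage differences were 1.89 for *Cxcl12*, 1.98 for *Cxcl14*, 1.76 for *Cxcr4* and 0.72 for *Ackr3*. Without E9.25 WT replicate 2 the WT stage differences as fitted, not relative to the median gene, were 1.99, 2.17, 2.05 and 0.95 in the same order.

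**Figure D3:**
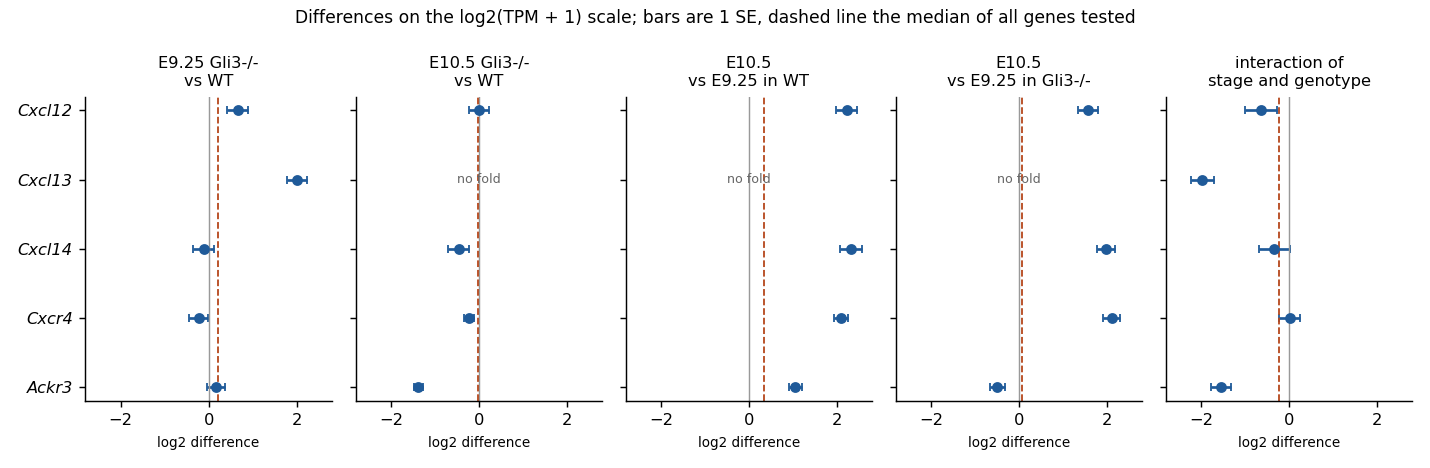
Differences in log2(TPM + 1) (horizontal axes) for the 5 members that were tested, in the 4 pairwise comparisons and in the interaction, with bars of 1 standard error and the median of all genes tested as a dashed line. *Cxcl13* has no fold where one group is listed at 0, *Ackr3* stood at -1.38 between genotypes at E10.5, and the stage differences of *Cxcl12*, *Cxcl14* and *Cxcr4* ran from 1.57 to 2.32.

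The genotype difference at E10.5 minus that at E9.25, fitted in all 14 libraries, was -1.55 for *Ackr3* (standard error 0.22) and -1.98 for *Cxcl13* (standard error 0.26). Both passed the threshold, which 2.13% of all genes did, and both lost the call with the replicate block by the numbers of the titles (limma adjusted p = 0.0528 for each). Without E9.25 WT replicate 2 the values were -1.45 and -2.12. For *Cxcl13* the value is that of E9.25 with its sign turned, since the gene was at or near 0 in every E10.5 library. The values were -0.65 (standard error 0.36) for *Cxcl12*, -0.34 (standard error 0.35) for *Cxcl14* and 0.01 (standard error 0.25) for *Cxcr4*, each under 2 times its standard error. Without E9.25 WT replicate 2 they were -0.42, -0.19 and 0.056.

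The ratio of the receptors *Ackr3* and *Cxcr4* differed between the stages and, at E10.5, between the genotypes. At E9.25 neither gene passed the threshold between the genotypes, and *Cxcr4* was low (0.91 to 2.32 TPM), so the ratios there rest on low values. In the same library, *Ackr3* TPM was 4.27 to 5.12 times *Cxcr4* TPM in E9.25 WT and 5.61 to 8.27 times in E9.25 *Gli3*-/-. At E10.5 the ratio was 1.38 to 1.96 in WT and 0.58 to 0.81 in *Gli3*-/-, so that *Cxcr4* exceeded *Ackr3* in the mutant group and in no other. No 2 of the 4 groups overlapped in this ratio. The ratio of the ligand *Cxcl12* to *Ackr3* was 0.63 to 0.92 in E9.25 WT, 1.01 to 1.26 in E9.25 *Gli3*-/-, 1.33 to 2.46 in E10.5 WT and 3.86 to 8.19 in E10.5 *Gli3*-/-, again without overlap. The ratio of *Cxcl12* to *Cxcr4* was 2.72 to 4.31 in E9.25 WT and 5.66 to 10.4 in E9.25 *Gli3*-/-, without overlap, and it overlapped between the E10.5 genotypes, at 2.25 to 4.00 and 3.11 to 4.78. Between the E9.25 genotypes, *Cxcl14* to *Cxcl12* overlapped, at 0.46 to 0.95 in WT and 0.23 to 0.50 in *Gli3*-/-. *Cxcl13* to *Cxcl12* did not, at 0.21 to 0.60 in WT and 0.65 to 1.60 in *Gli3*-/-. These ratios are a description of values already given, and the share of gene pairs whose ratios do not overlap was not computed.

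**Figure D4:**
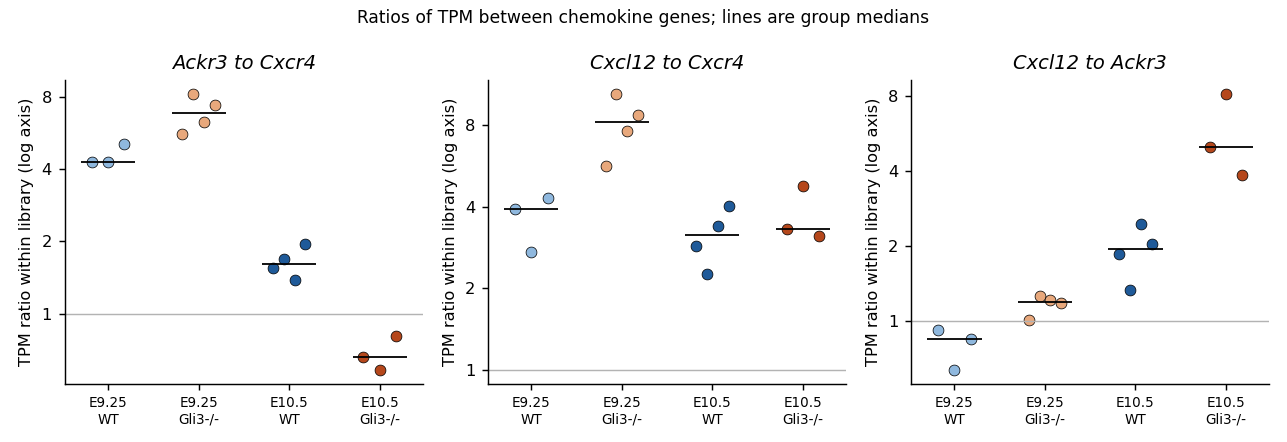
Ratios of TPM within each library (vertical log axes) of *Ackr3* to *Cxcr4*, *Cxcl12* to *Cxcr4* and *Cxcl12* to *Ackr3*, by group, with a line at each group median. The *Ackr3* to *Cxcr4* ratio was 0.58 to 0.81 in E10.5 *Gli3*-/- and at least 1.38 in the other groups, while *Cxcl12* to *Cxcr4* overlapped between E10.5 genotypes.

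The order of the levels differed between groups. In E9.25 WT, *Ackr3* was the most abundant of the 6 in mean TPM (8.01), followed by *Cxcl12* and *Cxcl14*, and each neighbouring pair overlapped. In E9.25 *Gli3*-/-, *Cxcl13* led with a mean of 11.1 TPM, followed by *Cxcl12* and *Ackr3*, also with overlap. At E10.5, *Cxcl12* led in both genotypes, with means of 33.5 ± 7.25 TPM (SD, n = 4) in WT and 34.6 ± 12.4 TPM (SD, n = 3) in *Gli3*-/-, and overlapped with *Cxcl14*, which came next. *Ackr3* came next in WT, above *Cxcr4*, and lay below *Cxcr4* in *Gli3*-/-, in each case without overlap with its neighbours.

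For each member, the 3 genes with the most similar pattern were found by the root mean square difference of centred log2(TPM + 1) over the 14 libraries, among 16367 genes. For *Ackr3* they were *Wnt4*, a WNT ligand, at 0.20, *Glis3*, a zinc finger factor, at 0.25 and *Gm43672* at 0.27, where the median gene lay at 0.59. *Wnt4* had mean TPM of 3.72, 4.85, 8.15 and 3.20 in E9.25 WT, E9.25 *Gli3*-/-, E10.5 WT and E10.5 *Gli3*-/-. For *Cxcl13* they were *Wt1* at 0.46, *D030025E07Rik* at 0.48 and *Lhx1* at 0.48, against a median gene at 1.61. *Wt1* and *Lhx1* encode transcription factors of intermediate and lateral mesoderm, and *Wt1* is also among the flank markers. For *Cxcl12* they were *Syt11*, *Tcf7l2* and *Gatsl2* (0.18 to 0.21). For *Cxcr4* they were *Hpgd*, *Cav1* and *Gpm6b* (0.22 to 0.24). For *Cxcl14* they were *Oxct1*, *Myf5* and *Cav1* (0.26 to 0.27).

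The rest of the chemokine system was described from 4 lists of gene names: 36 for other ligands, 21 for other receptors, 20 for the relay of receptor signals and 8 for other partners of CXCR4 and ACKR3. *Grk2* and *Grk3* of the relay list were not found under those names, but both were found under their older names on the same list, *Adrbk1* and *Adrbk2*. Of the 83 genes found in the tables, 25 to 28 were tested in each comparison, since most ligands and receptors stayed below the filter. Among the receptors only *Cx3cr1*, the fractalkine receptor of macrophages, reached it. 14 other ligands and 3 other receptors were at 0 in all libraries.

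At E9.25, 0 of 25 tested genes of the lists passed between the genotypes in limma, where 0.136% of all genes did. At E10.5, 3 of 27 passed, against 4.77% of all genes. *Ppbp*, a platelet chemokine, was listed at 4.42, 4.46, 5.18 and 5.79 TPM in WT and at 8.52, 10.03 and 11.4 TPM in *Gli3*-/- libraries. It rose by a log2 difference of 0.88 (standard error 0.13, limma adjusted p = 0.00638). The call was lost in a model of all 14 libraries (adjusted p = 0.184). *Gnai1*, a subunit of the inhibitory G protein, was at 11.4 to 12.3 TPM in WT and 17.1 to 21.5 TPM in *Gli3*-/- and rose by 0.71 (standard error 0.10, limma adjusted p = 0.00456), a call lost with the replicate block by the numbers of the titles (adjusted p = 0.0697). *Ccl27a*, a skin chemokine, was at 8.05, 8.51, 19.3 and 14.7 TPM in WT and at 4.32, 6.17 and 4.16 TPM in *Gli3*-/-, and fell by 1.15 on the log2 scale (standard error 0.28, limma adjusted p = 0.0498). Its adjusted p ran from 0.0187 to 0.235 over the alternatives, it lost the call without WT replicates 3 or 4 or without any 1 of the 3 mutant replicates, and it overlaps *Il11ra1* in the tables, so its reads may be shared. The median log2 difference of the 27 list genes was 0.04, beside -0.02 for all genes tested. *Adm*, whose product ACKR3 can also take up, had a log2 difference of 0.65 (standard error 0.18, limma adjusted p = 0.0844), and it was named after its value was seen.

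**Figure D5:**
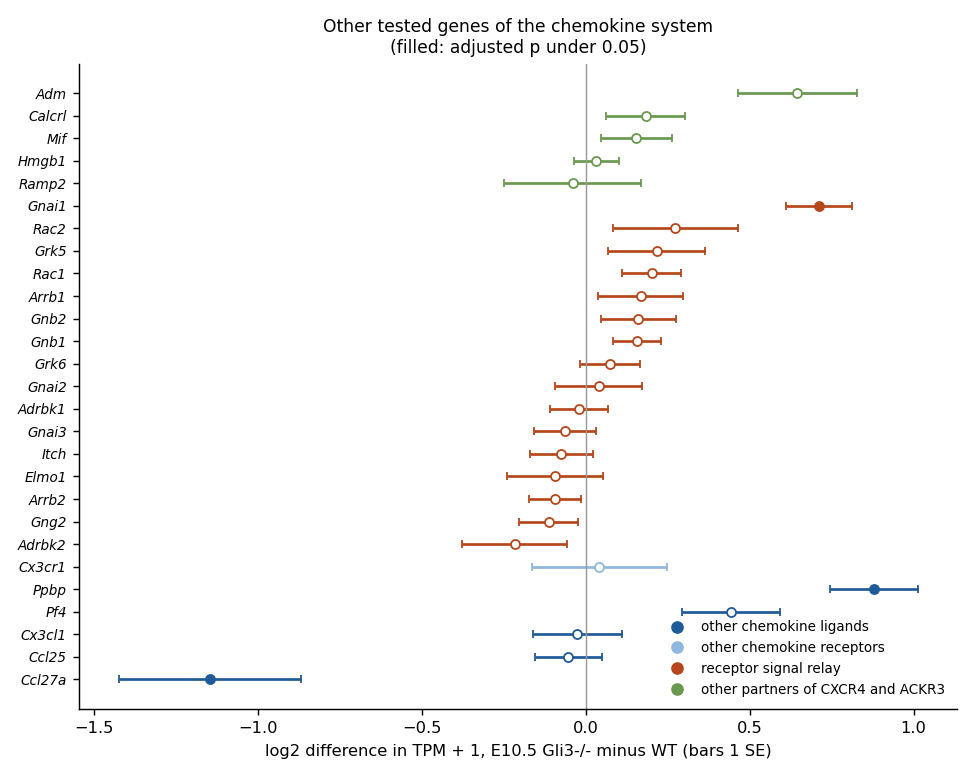
Differences in log2(TPM + 1), E10.5 *Gli3*-/- minus WT, for the 27 tested genes of the 4 lists, coloured by list, with bars of 1 standard error and filled points where the adjusted p was under 0.05. *Ppbp* (0.88), *Gnai1* (0.71) and *Ccl27a* (-1.15) are filled.

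Between the stages, 15 of 27 list genes passed in WT (13 higher, 2 lower at E10.5), against 48.7% of all genes, and 9 of 27 in *Gli3*-/- (6 higher, 3 lower), against 25.0%. In WT the median list gene moved by 0.30 and the median of all genes by 0.34. *Ccl6* fell in WT by 2.53 on the log2 scale (standard error 0.24, limma adjusted p = 0.000188), from 4.58, 9.45 and 8.75 TPM to at most 0.64 TPM. It passed the filter there only through the E9.25 libraries. *Ppbp* rose by 1.58 in WT (limma adjusted p = 0.00151) and by 2.81 in *Gli3*-/- (limma adjusted p = 0.000116). *Cx3cr1* rose by 1.19 in WT (limma adjusted p = 0.00262) and by 1.14 in *Gli3*-/- (limma adjusted p = 0.000737), together with the macrophage markers. It was at most 0.19 TPM at E9.25 and 0.74 to 1.92 TPM at E10.5, so it passed the filter only through the E10.5 libraries. Its span overlaps *Wdr48*, *Gorasp1*, *Ttc21a*, *Csrnp1* and *Xirp1*, so its reads may be shared. *Ccl27a* rose by 1.13 in WT (limma adjusted p = 0.0131). The receptor kinases *Grk5* and *Adrbk2*, which turn off active receptors, rose by 0.90 each in WT (limma adjusted p = 0.00379 and 0.00817). In *Gli3*-/-, *Grk5* rose by 0.75 (limma adjusted p = 0.0162), the small GTPase *Rac2* rose by 0.95 (limma adjusted p = 0.00151), and *Elmo1*, an adaptor for cell movement, fell by 1.23 (limma adjusted p = 0.000679). *Rac2* passed the filter only through the E10.5 *Gli3*-/- libraries. In E10.5 WT it was at 0.72, 0.37, 1.075 and 1.28 TPM and was not tested. *Elmo1* was at 5.87 to 9.65 TPM in E9.25 *Gli3*-/- and 3.23 to 5.04 TPM in E9.25 WT. It lies at 20090596 to 20606528 on chromosome 13, where *Gli3* lies at 15463235 to 15730026. Whether alleles linked to the mutation entered its values was not tested. *Grk5* lost its call in *Gli3*-/- without E10.5 replicates 2 or 3 (adjusted p up to 0.0742).

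*Pf4*, the most abundant of the other ligands and a platelet chemokine, rose by 0.64 in WT (limma adjusted p = 0.0233) and 1.23 in *Gli3*-/- (limma adjusted p = 0.0190). In WT that call was lost under median-of-ratios scaling, in the model of all 14 libraries, with either replicate block and without E9.25 WT replicate 3 or E10.5 WT replicate 4, and in *Gli3*-/- without the filter and without E10.5 replicates 2 or 3. *Mif*, the most abundant listed partner and an alternative ligand of CXCR4, was at 1564 to 1987 TPM in E9.25 WT and 974 to 1235 TPM in E10.5 WT, and fell by 0.62 (standard error 0.12, limma adjusted p = 0.00403). In *Gli3*-/- it fell by 0.50 (limma adjusted p = 0.0109), a call lost without E10.5 replicates 2 or 3. *Gnb1*, the most abundant relay gene, rose by 0.27 in WT (limma adjusted p = 0.0411), less than the median gene, and lost the call in 5 of 7 alternatives. In the interaction, 1 of 28 list genes passed, *Ccl6* (2.14, standard error 0.47, limma adjusted p = 0.0268), against 2.13% of all genes. It was at 1.49, 1.10, 0.72 and 4.44 TPM in E9.25 *Gli3*-/- libraries, below the WT libraries without overlap, and its call was lost in 9 of 14 fits that left out a library, that without E9.25 WT replicate 2 included, and also without the filter and with the replicate block by the numbers of the titles. *Ccl6* overlaps *E230016K23Rik* in the tables.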

How the data were processed

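RNA from the 14 libraries was sequenced as single reads of 100 bases and, per the study's methods, aligned with HISAT2. The submitters' processing notes name mm10, and the tool that made the gene tables is not given in the sources used here. The deposited tables hold coverage (a signal), FPKM and TPM per gene ID, all computed by the authors, and no counts, so the study's DESeq2 test could not be run. Coverage and FPKM served only to estimate depth. The deposited TPM values were analysed with limma 3.58.1 in R 4.3.3 (trend, two-sided) on log2(TPM + 1), keeping genes that reached a TPM of 1 in 3 or more libraries of a comparison, with Benjamini-Hochberg adjustment over all genes kept and a threshold of 0.05. A fold on this scale understates the change of low genes. The fit was also run on simulated data with independent noise of the same spread in all groups. The real groups differ in spread (log2 SD of *Gli3* 0.83 in E9.25 WT and 0.04 in E10.5 *Gli3*-/-), so no result rests on that run. Gene lines that repeat an ID were summed as 1 gene.

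The members and lists were chosen with earlier results of these data known. Named were all 6 members, *Gli3*, from the 4 lists the genes that passed (at most 6 per comparison, by size) and the most abundant of each, the 3 nearest genes of each member, and at most 3 genes per marker list, except where more are named as those that passed. Results were recomputed with a pseudocount of 0.1, without the filter, with a filter at 5 TPM, with median-of-ratios size factors, in 1 model of all 14 libraries, with replicate blocks, and with each library left out. Start-site sequences are from RefSeq (GRCm38.p6) and covered 5 of the 6 members.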

Additional observations from a re-analysis of the deposited data

Results flagged for a closer look

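The genotype difference at E10.5 minus that at E9.25 passed the all-gene threshold for *Ackr3* (-1.55), *Cxcl13* (-1.98) and *Ccl6* (2.14). *Ackr3* and *Cxcl13* were chosen on these same differences, so their values are a description and support nothing further, and that of *Cxcl13* is its E9.25 difference with the sign turned. Both lost the call with the replicate block by the numbers of the titles (limma adjusted p = 0.0528 for each). *Ccl6* lost it with that block, without the filter and in 9 of 14 fits that left out a library. The E10.5 buds were anterior parts and the E9.25 buds whole, and stage and dissection cannot be told apart. No member had a library far from the others of its group by Dixon's criterion in the groups of 4.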

How the results depend on the processing

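Of 412 comparisons of a value with an alternative, 378 stayed within 1 SD (for counts, within 1.5 times) and no called value reversed. Among values that were not called, signs turned for *Cxcl12* at E10.5, *Cxcl14* and *Ackr3* at E9.25 and *Cxcr4* in the interaction. With a pseudocount of 0.1 the log2 difference of *Cxcl13* at E9.25 was 2.43, that of *Ackr3* at E10.5 -1.50, and that of *Cxcr4* between the stages 2.56 in WT and 2.68 in *Gli3*-/-. With median-of-ratios size factors *Cxcr4* was at 1.83 and *Ackr3* at 0.74 between the stages in WT, the *Ackr3* interaction at -1.30, and the list genes called were 9 between the stages in WT and 2 in the interaction. In the model of all 14 libraries 2 list genes passed at E9.25 (*Ccl6* and *Elmo1*). Without a filter, or at a TPM of 5, 0 list genes passed in the interaction, and without a filter no gene at all passed between the E9.25 genotypes, where 3542 had an unadjusted p under 0.05, so the *Cxcl13* call was lost. With the filter there were 20 calls and 3247 unadjusted. All-gene calls at E9.25 numbered 1185 in the model of all 14 libraries. Leaving out each library gave 0 to 1 list genes called at E9.25, 9 to 17 between the stages in WT, 2 to 9 in *Gli3*-/- and 0 to 2 in the interaction. The lowest count in WT came without E10.5 replicate 4 and those in *Gli3*-/- without E10.5 replicates 2 or 3. Over all genes, leaving out each library gave 2 to 196 calls at E9.25 (20 with all), 301 to 680 at E10.5 (747), 2129 to 4326 between the stages in *Gli3*-/- (3853) and 150 to 1433 in the interaction (348). The lowest came without E9.25 WT replicate 3, E10.5 *Gli3*-/- replicate 3, E10.5 *Gli3*-/- replicate 2 and E10.5 *Gli3*-/- replicate 3, in that order, and the highest at E9.25 and in the interaction without E9.25 WT replicate 1. The stage differences of *Cxcl13* were fitted and are counted among the calls, but their size is not given, since the E10.5 libraries were at or near 0 and it depends on the pseudocount.

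With the replicate block by the numbers of the titles, list genes called were 1 at E9.25, 1 at E10.5, 9 between the stages in WT and 0 in the interaction, where the calls of *Ackr3* and *Cxcl13* were lost. With the replicate block by the numbers of the tables, they were 1 at E9.25 and 9 between the stages in WT. Same-numbered libraries deviated together in all 3 pairs only for the E10.5 genotypes by the numbers of the tables. Those correlations were 0.05 to 0.29, with a mean of 0.17, against a mean of -0.06 for other pairs. They were -0.18 to -0.15 for the E9.25 genotypes and -0.16 to 0.12 for the E10.5 genotypes by titles. Whether the numbers pair the libraries cannot be told from these values. Calls over all genes fell from 348 to 42 (titles) and 59 (tables) in the interaction, from 747 to 164 (titles) and 498 (tables) at E10.5 and from 7520 to 4699 (either) between the stages in WT. They rose from 20 to 66 (either) at E9.25, and between the stages in *Gli3*-/- they went from 3853 to 3824 (titles) and 4444 (tables).

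The tables used hold no counts, so counting error is not given for any gene, and groups of 3 or 4 libraries limit the precision.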
